A study of Mus musculus with 8 samples.

Results

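The genes described here are 10 genes that mark or arm the macrophages of the testis, namely *Csf1r*, *Adgre1*, *Cd68*, *Lyz2*, *C1qa*, *C1qb*, *C1qc*, *Mrc1*, *Cd163* and *Aif1*. They were chosen by name, and each had 1 row among the 54532 genes of the deposited table. All 10 were detected in each of the 8 libraries, with 11 fragments or more. The libraries came from whole testes, 1 per mouse, of 4 control mice (*Sync-Spdya* fl/fl) and 4 knockout mice (*Sync-Spdya* cKO). Mice of both groups carried the floxed *Spdya* allele on both chromosomes, had spermatogenesis synchronized by blocking and then supplying retinoic acid (RA), and received tamoxifen at RA7.5 and RA8.5 according to the labels, the day numbers counting from the RA injection, and testes were collected at RA11.5. The cKO mice carried *Ddx4-CreERT2* in addition, a tamoxifen-dependent Cre expressed from the germ cell gene *Ddx4*, so macrophages are not the cells targeted by the Cre. *Spdya* encodes SpdyA, an activator of the kinase CDK2 in meiosis. The question here is how the level of macrophage transcripts in the whole organ compared between testes with and without SpdyA in pachytene spermatocytes.

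Macrophages are the most common immune cell of the testis and lie in the interstitium beside the Leydig cells and on the wall of the tubules. They depend on signalling through the receptor encoded by *Csf1r*, take up dying cells and debris through scavenger receptors, and digest them in lysosomes rich in CD68 and lysozyme. They also make C1q, the recognition molecule of the classical complement pathway, which binds dying cells and immune complexes and is assembled from the chains C1qa, C1qb and C1qc.

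Of the 10 genes, 9 had a higher fitted level in *Sync-Spdya* cKO testes, and none passed the test after adjustment for all genes. In the main fit described below, all 8 genes tested were higher, beside 52.0% of all genes tested. In the wider fit, which holds the other 2 genes, the share of all genes was 53.6%. The differences ranged from 0.24 to 0.91 on the log2 scale among the 9 genes, with the C1q chains at 0.84 to 0.91, *Cd163* at 0.83, *Lyz2* at 0.76 and *Csf1r* at 0.72, while *Mrc1* and *Adgre1* stood at 0.24. *Aif1* was the exception at -0.22. A difference is the mean log2(FPKM + 0.1) of the cKO libraries minus that of the fl/fl libraries, where FPKM is the number of fragments scaled to the exonic length of the gene and to the size of the library, so it understates the fold of a gene with a low level. Of the 10 genes, 8 had a mean FPKM above 1 in both groups and were tested with limma among the 12141 protein-coding genes at such levels. The other two, *Cd163* and *Aif1*, were tested in a wider fit of 15937 protein-coding genes whose mean over all libraries exceeded 0.1 FPKM.

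None of the 8 genes had an adjusted p below 0.05 in limma, where 0.0165% of the genes tested did (2 genes), and none of the 10 differed by more than 1 on the log2 scale. Their adjusted p ranged from 0.229 to 0.665. At an unadjusted p below 0.05, 6 of the 8 were higher in cKO testes (*Csf1r*, *Lyz2*, *C1qa*, *C1qb*, *C1qc* and *Mrc1*), beside 5.89% of all genes tested, and the count was also 6, beside 5.76%, with limma's voom on fragment counts recovered from the FPKM values. The levels of the 2 groups did not overlap for 3 of the 8 (*Csf1r*, *C1qb* and *C1qc*), which was so in the same direction for 3.64% of the genes tested. The median difference of the 8 was 0.74, and that of all genes tested was 0.01. The 8 genes were measured in the same libraries and correlated across them, so these counts do not add up independent evidence.

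**Figure D1:**
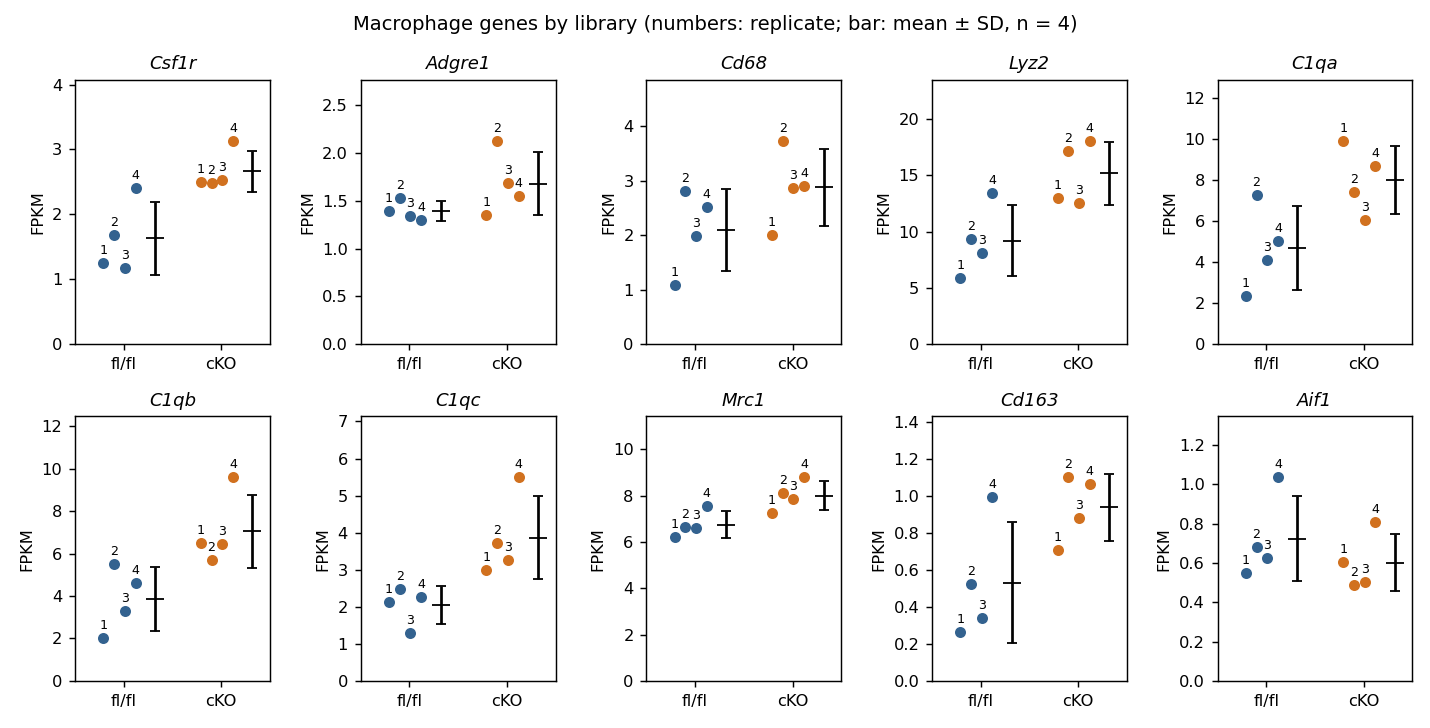
FPKM (vertical axis, linear, starting at 0 in each panel) of the 10 macrophage genes in the 4 *Sync-Spdya* fl/fl and the 4 *Sync-Spdya* cKO libraries, with 1 point per mouse, and bars for the mean with the SD of the group. The groups do not overlap for *Csf1r*, *C1qb* and *C1qc*, and the fl/fl libraries spread more widely than the cKO libraries for *Csf1r* and *Cd163*.

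The libraries held 13978342 to 19583091 fragments on genes, with the groups interleaved. Control replicate 1 stood apart from the other libraries, with 0.464% of its fragments on mitochondrial genes beside 2.20% to 3.74% in the rest and Pearson correlations with the others of 0.969 to 0.980 across genes, so results below are given without it where it moves them. *Spdya* itself was at 19.7 to 23.8 FPKM in fl/fl libraries and 17.7 to 30.5 FPKM in cKO libraries, with a difference of 0.15 ± 0.16 (SE; limma adjusted p = 0.787). The deletion removes 1 exon in part of the cells, so the level over the whole gene does not check the genotype. In bulk RNA from a whole organ, a change in the number of macrophages and a change in the RNA of each macrophage cannot be told apart.

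The proximal upstream sequences are shown for the 4 members whose window held the motif AGGAAGT, a core recognized by ETS factors of the PU.1 type. PU.1 is a transcription factor of myeloid cells, and any part of it in the levels of these genes was not tested. Of the 10 genes, 7 matched a promoter window of RefSeq (GRCm38.p6), of 250 bases before and 50 after the annotated start. The motif was searched on both strands, as AGGAAGT and ACTTCCT, and was chosen after the windows had been read. It was in 4 of the 7 windows and in 9.35% of the 32851 windows of all genes, and the windows of *Cd68*, *Cd163* and *Aif1* did not hold it. A match is a description of the letters and not a bound site. The lines give the 250 bases before the RefSeq start, 5′ to 3′ on the strand of the gene. The match is in capitals and in each case is the motif on the opposite strand. They lie at chr10:117282273-117282522 (minus strand) for *Lyz2*, chr4:136886201-136886450 (minus) for *C1qb*, chr4:136892915-136893164 (minus) for *C1qc* and chr2:14229164-14229413 (plus) for *Mrc1*.
Lyz2: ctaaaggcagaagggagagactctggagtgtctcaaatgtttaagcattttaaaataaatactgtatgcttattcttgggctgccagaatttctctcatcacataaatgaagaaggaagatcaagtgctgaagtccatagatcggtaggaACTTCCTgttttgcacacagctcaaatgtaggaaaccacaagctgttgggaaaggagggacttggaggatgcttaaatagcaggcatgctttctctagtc
C1qb: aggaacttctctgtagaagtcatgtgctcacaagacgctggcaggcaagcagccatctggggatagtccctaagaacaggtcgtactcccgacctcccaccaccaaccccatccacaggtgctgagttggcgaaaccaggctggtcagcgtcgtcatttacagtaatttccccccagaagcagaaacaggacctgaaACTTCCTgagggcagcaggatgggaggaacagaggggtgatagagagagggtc
C1qc: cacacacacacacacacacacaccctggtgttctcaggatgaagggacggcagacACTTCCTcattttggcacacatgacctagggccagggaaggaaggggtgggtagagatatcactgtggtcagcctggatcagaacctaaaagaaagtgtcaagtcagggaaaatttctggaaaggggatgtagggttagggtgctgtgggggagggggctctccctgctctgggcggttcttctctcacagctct
Mrc1: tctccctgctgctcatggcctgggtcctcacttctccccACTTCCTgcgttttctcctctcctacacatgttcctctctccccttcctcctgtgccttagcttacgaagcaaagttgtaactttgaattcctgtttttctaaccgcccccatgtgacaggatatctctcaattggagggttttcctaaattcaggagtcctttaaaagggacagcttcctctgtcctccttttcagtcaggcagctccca

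The match lay 100 bases before the RefSeq start in *Lyz2*, 53 in *C1qb*, 195 in *C1qc* and 211 in *Mrc1*. The RefSeq starts differ from the gene coordinates of the deposited table, which are given with each gene below. By those coordinates *C1qc* ends at 136893065, *Lyz2* ends at 117282321 and *Mrc1* starts at 14229392, so their printed windows lie partly inside the genes. *C1qb* ends at 136886187, so its printed window lies wholly before the gene. How far the 4 matches differ in position therefore depends on the annotation. The differences of the 4 genes between groups, 0.24 to 0.91, covered the range of the 10 genes other than *Aif1*.

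The receptor gene *Csf1r* (ENSMUSG00000024621, GRCm38 chromosome 18, 61105572 to 61132149, plus strand) encodes the receptor for the growth factors CSF1 and IL34, on which macrophages depend. It was at 1.25, 1.68, 1.18 and 2.41 FPKM in fl/fl replicates 1 to 4 and at 2.50, 2.49, 2.54 and 3.13 FPKM in cKO replicates 1 to 4. Each cKO library was above each fl/fl library, although fl/fl replicate 4 came close to the lowest cKO library, and 3 of the cKO libraries were nearly equal. The group means were 1.63 ± 0.566 and 2.67 ± 0.314 FPKM (SD, n = 4), a ratio of 1.63. The difference of 0.72 ± 0.22 (SE) had an unadjusted p of 0.00769 and an adjusted p of 0.286 in limma, and the exact permutation test over the 70 assignments of the libraries, two-sided, gave p = 0.0286, the smallest it can give. The gene *Hmgxb3* overlaps *Csf1r* on the opposite strand at 20.1 to 24.3 FPKM, and whether the counting used strand is not given in the sources used here, so fragments of *Hmgxb3* may be included in the values of *Csf1r*.

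For the gene lists that follow, which draw on both fits, the shares over the 15937 genes of the wider fit were 53.6% with a difference above 0, 6.23% higher and 4.86% lower at an unadjusted p below 0.05, 0.0125% called at an adjusted p below 0.05, and 3.78% higher and 2.55% lower without overlap of the groups. Other components of the CSF1R axis were taken as a list of 9 genes, the ligands *Csf1* and *Il34* and 7 macrophage transcription factors. Of the 8 tested, 0 were called, 2 were higher at an unadjusted limma p below 0.05 and 0 lower, with a median difference of 0.40. *Csf1*, which encodes a ligand of CSF1R, was at 1.10 ± 0.185 FPKM in fl/fl and at 1.87 FPKM on average in cKO testes, with no overlap and a difference of 0.71 ± 0.19 (adjusted p = 0.229). The other was *Spi1*, named here after its values were seen, which encodes PU.1, a transcription factor of myeloid cells, with a difference of 0.93 ± 0.30 (unadjusted p = 0.0114, adjusted p = 0.306) at levels below 1 FPKM in all libraries.

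*Adgre1* (ENSMUSG00000004730, chromosome 17, 57358691 to 57483527, plus strand) encodes F4/80, the adhesion receptor by which mouse macrophages are usually stained. Its levels were 1.39, 1.53, 1.34 and 1.30 FPKM in the fl/fl libraries against 1.35, 2.13, 1.68 and 1.55 FPKM in the cKO libraries. The groups overlapped, with cKO replicate 1 below 2 of the fl/fl libraries, and cKO replicate 2 was the highest. The means of 1.39 ± 0.101 and 1.68 ± 0.329 FPKM (SD, n = 4) gave a difference of 0.24 ± 0.17, with an unadjusted p of 0.189 and an adjusted p of 0.665 in limma. Without cKO replicate 2 the difference was 0.12.

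Of the lysosomal genes, *Cd68* (ENSMUSG00000018774, chromosome 11, 69664213 to 69666153, minus strand) encodes a heavily glycosylated membrane protein of the macrophage lysosome. It was at 1.09, 2.81, 1.98 and 2.52 FPKM in the fl/fl libraries and at 2.01, 3.74, 2.88 and 2.90 FPKM in the cKO libraries. The groups overlapped, and the low value of control replicate 1 carried much of the difference, which was 0.48 ± 0.28 with all libraries (adjusted p = 0.591 in limma) and 0.21 without that library.

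*Lyz2* (ENSMUSG00000069516, chromosome 10, 117277331 to 117282321, minus strand) encodes lysozyme M, the lysozyme of macrophages and neutrophils, and had the highest mean of the 10 genes in both groups. Its levels were 5.91, 9.35, 8.12 and 13.4 FPKM in the fl/fl libraries against 13.0, 17.1, 12.5 and 18.1 FPKM in the cKO libraries. Fl/fl replicate 4 lay above 2 of the cKO libraries, and every other fl/fl library lay below all 4 of them. The means of 9.20 ± 3.14 and 15.2 ± 2.83 FPKM gave a difference of 0.76 ± 0.23, with an unadjusted p of 0.00779 and an adjusted p of 0.287 in limma, and the exact permutation p was 0.0857. Its near-identical neighbour *Lyz1* was listed at 0 to 0.0966 FPKM, and how fragments shared by the 2 genes were counted is not given in the sources used here.

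The C1q genes lie side by side on the minus strand of chromosome 4 within 18675 bases, *C1qb* from 136880129 to 136886187, *C1qc* from 136889804 to 136893065 and *C1qa* from 136895917 to 136898803, with 0 other genes of the table in the gaps of 3616 and 2851 bases between them. *C1qa* (ENSMUSG00000036887) was at 2.35, 7.27, 4.12 and 5.05 FPKM in the fl/fl libraries and at 9.92, 7.41, 6.04 and 8.66 FPKM in the cKO libraries. *C1qb* (ENSMUSG00000036905) was at 2.03, 5.53, 3.29 and 4.60 FPKM and at 6.49, 5.70, 6.43 and 9.58 FPKM. *C1qc* (ENSMUSG00000036896) was at 2.13, 2.49, 1.29 and 2.28 FPKM and at 2.99, 3.73, 3.26 and 5.49 FPKM. For *C1qb* and *C1qc*, whose upstream sequences are printed above with that of *Lyz2* and *Mrc1*, each cKO library was above each fl/fl library, and for *C1qa* 1 pair of libraries broke that order, fl/fl replicate 2 lying above cKO replicate 3.

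*C1qa* had means of 4.70 ± 2.05 and 8.01 ± 1.66 FPKM (SD, n = 4) and a difference of 0.84 ± 0.30 (adjusted p = 0.349 in limma). *C1qb* had means of 3.86 ± 1.53 and 7.05 ± 1.72 FPKM and a difference of 0.91 ± 0.28 (adjusted p = 0.287). *C1qc* had means of 2.05 ± 0.523 and 3.87 ± 1.12 FPKM and a difference of 0.88 ± 0.24 (adjusted p = 0.229), the lowest adjusted p among the 8 genes, which placed it at rank 213 of all genes tested by unadjusted p. The ratios of the means were 1.71, 1.83 and 1.89, so the chains differed between the groups by similar amounts within their errors. Without control replicate 1, in which *C1qa* and *C1qb* were lowest, the differences of *C1qa* and *C1qb* were 0.56 and 0.65, and that of *C1qc* was 0.92.

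Since 3 chains make up C1q, their proportions were compared in each library. The ratio of *C1qa* to *C1qb* in FPKM was 1.21 ± 0.0974 in fl/fl and 1.17 ± 0.299 in cKO testes (exact permutation test, two-sided, p = 0.657), and that of *C1qa* to *C1qc* was 2.36 ± 0.933 and 2.18 ± 0.773 (exact p = 0.886). The proportions therefore showed no difference beyond the spread between mice, a spread wide enough that a moderate change could not have been seen. The summed level of the 3 chains was 6.52 to 15.3 FPKM in fl/fl libraries and 15.7 to 23.7 FPKM in cKO libraries, which did not overlap, and fl/fl replicate 2 came close to the lowest cKO library.

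The scavenger receptor gene *Mrc1* (ENSMUSG00000026712, chromosome 2, 14229392 to 14332057, plus strand) encodes the mannose receptor CD206, a marker of interstitial resident macrophages. Its levels were 6.20, 6.66, 6.59 and 7.57 FPKM in the fl/fl libraries against 7.26, 8.11, 7.87 and 8.79 FPKM in the cKO libraries. The order of the libraries was broken by 1 pair, fl/fl replicate 4 and cKO replicate 1. With 518 to 951 fragments per library *Mrc1* was the most deeply sampled of the 10 genes, and its spread between mice was the narrowest. The means of 6.75 ± 0.577 and 8.01 ± 0.632 FPKM gave a difference of 0.24 ± 0.10, with an unadjusted p of 0.042 and an adjusted p of 0.447 in limma.

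The summed C1q level divided by that of *Mrc1*, a ratio that does not depend on how libraries are scaled and that was chosen after the values were seen, was 1.05, 2.29, 1.32 and 1.58 in the fl/fl libraries and 2.67, 2.08, 2.00 and 2.70 in the cKO libraries. Fl/fl replicate 2 lay within the cKO range and the other fl/fl libraries below it (exact permutation test on log2 ratios, two-sided, p = 0.0857). The larger difference of the C1q genes than of *Mrc1* therefore did not exceed the spread between mice at a p of 0.05.

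*Cd163* (ENSMUSG00000008845, chromosome 6, 124304656 to 124330527, plus strand) encodes the receptor that takes up haemoglobin bound to haptoglobin. It was at 0.265, 0.525, 0.340 and 0.995 FPKM in the fl/fl libraries and at 0.708, 1.10, 0.880 and 1.07 FPKM in the cKO libraries. Fl/fl replicate 4 lay among the cKO libraries, and the others lay below them all. The difference was 0.83 ± 0.33, with an unadjusted p of 0.0280 and an adjusted p of 0.402 in the wider limma fit, in which 6.23% of genes were higher at an unadjusted p below 0.05.

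*Aif1* (ENSMUSG00000024397, chromosome 17, 35170991 to 35176068, minus strand) encodes IBA1, an actin-binding protein of macrophages and microglia. It was at 0.548, 0.684, 0.626 and 1.04 FPKM in the fl/fl libraries and at 0.606, 0.491, 0.503 and 0.807 FPKM in the cKO libraries. These values rest on 11 to 26 fragments per library, and their spread within groups was 0.876 times the counting error, so a moderate difference in either direction was not detectable at this depth. The difference was -0.22 ± 0.23 (adjusted p = 0.784 in the wider limma fit). Leaving out control replicate 4 changed it to -0.054, leaving out cKO replicate 2 to -0.14 and leaving out cKO replicate 4 to -0.35.

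**Figure D2:**
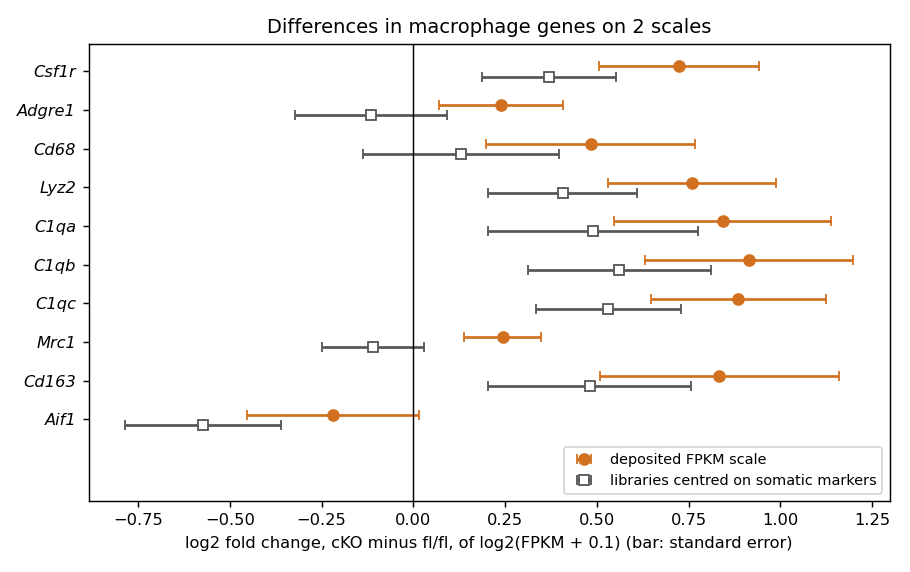
Difference in mean log2(FPKM + 0.1), cKO minus fl/fl testes (horizontal axis) for each macrophage gene, with bars of 1 SE from limma, on the deposited FPKM scale and after centring each library on 25 somatic marker genes. On the deposited scale the values run from -0.22 for *Aif1* to 0.91 for *C1qb*, and on the somatic scale those of *Adgre1* and *Mrc1* are -0.12 and -0.11.

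By level, which can be set side by side because FPKM is per length, the order in fl/fl testes was *Lyz2*, *Mrc1*, *C1qa*, *C1qb*, *Cd68*, *C1qc*, *Csf1r*, *Adgre1*, *Aif1* and *Cd163*. Neighbours in this order had overlapping ranges of mean ± SD, except *Adgre1* and *Aif1*. In cKO testes *C1qc* came before *Cd68* and *Cd163* before *Aif1*, and the order was otherwise kept. There the ranges of *Lyz2* and *Mrc1*, *C1qb* and *C1qc*, *Csf1r* and *Adgre1*, *Adgre1* and *Cd163*, and *Cd163* and *Aif1* did not overlap.

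The genes varied together across the mice. Over the 36 pairs of the 9 genes other than *Aif1*, the Pearson correlation of log2(FPKM + 0.1) across the 8 libraries had a median of 0.777 and a range of 0.335 to 0.966. With *Aif1* the 45 pairs reached down to -0.558. These values are given as a description, since the points are the same 8 libraries and include the difference between the groups. Control replicate 1 was the lowest library for 6 of the 10 genes, and control replicate 3 was the lowest for 2 and the next lowest for 7. CKO replicate 4 was the highest for 5 and cKO replicate 2 for 3, and cKO replicate 4 was among the 4 highest libraries for all 10. The summed level of the 10 genes was 23.2, 38.5, 28.9 and 41.2 FPKM in fl/fl replicates 1 to 4 and 46.9, 52.0, 44.6 and 60.1 FPKM in cKO replicates 1 to 4, so that the sums did not overlap.

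**Figure D3:**
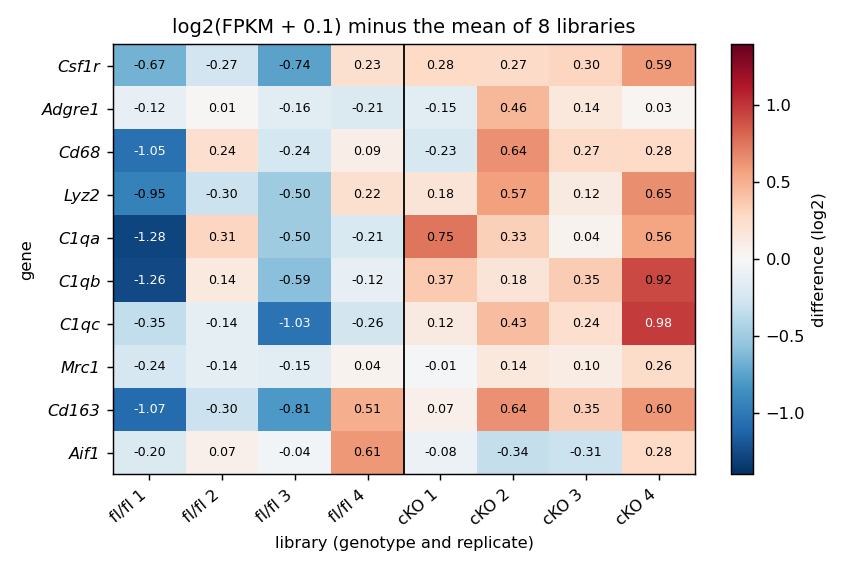
Log2(FPKM + 0.1) of each macrophage gene (rows) in each library (columns), minus the mean of the gene over the 8 libraries, as colour and number. Control replicates 1 and 3 are low for most genes and cKO replicate 4 is high, with *Csf1r* at -0.67 in control replicate 1 and at 0.59 in cKO replicate 4.

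Leaving out each library in turn, the unadjusted limma p stayed below 0.05 in all 8 fits for *Csf1r*, *Lyz2*, *C1qb* and *C1qc*, in 7 for *C1qa*, in 4 for *Cd163* and in 2 for *Mrc1*. *C1qa* lost it without cKO replicate 1. *Mrc1* lost it without control replicate 1, 2 or 3 or cKO replicate 2, 3 or 4, and *Cd163* without control replicate 1 or 3 or cKO replicate 2 or 4. Without control replicate 1, the genes whose groups did not overlap were again 3 of the 8, beside 8.33% of the genes tested. The differences without that library were 0.62 for *Csf1r*, 0.57 for *Lyz2*, 0.62 for *Cd163*, 0.20 for *Mrc1*, 0.24 for *Adgre1* and -0.32 for *Aif1*. Those of *Cd68* and the C1q genes are given above.

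The complement pathway beyond C1q was described with 14 genes, of which 13 were tested and all 13 had a difference above 0, with a median of 0.62. None was called, and 6 were higher and 0 lower at an unadjusted p below 0.05 in limma. *C1s1*, the protease that C1q activates together with C1r, was the most abundant, at 12.01 ± 7.37 FPKM in fl/fl and 20.1 FPKM on average in cKO testes (difference 0.83 ± 0.35, adjusted p = 0.445). *C3ar1*, the receptor for the complement fragment C3a on myeloid cells, had the smallest p, at 0.186 and 0.431 FPKM with no overlap (difference 0.89 ± 0.22, adjusted p = 0.179). Summed over the list, the level was 25.8 to 69.2 FPKM in fl/fl and 53.9 to 86.2 FPKM in cKO libraries, which overlapped.

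Of 28 other macrophage genes, such as Fc receptors, lysosomal proteases and surface antigens, 24 were tested, 22 had a difference above 0 and the median was 0.35. None was called, with 5 higher and 0 lower at an unadjusted p below 0.05. *Lgmn*, a lysosomal protease found in many cell types, was the most abundant at 61.4 ± 13.3 FPKM in fl/fl testes and differed by 0.28 ± 0.15 (adjusted p = 0.538), or 0.18 without control replicate 3. *Fcer1g*, the signalling chain shared by activating Fc receptors, did not overlap between the groups, at 3.07 ± 0.707 and 4.42 FPKM (difference 0.53 ± 0.18, adjusted p = 0.333). The Fc receptor genes themselves, named after their values were seen, differed in both directions, *Fcgr1* by 0.81 ± 0.40, *Fcgr2b* by 0.63 ± 0.31, *Fcgr3* by -0.50 ± 0.23 and *Fcgr4* by -0.087 ± 0.38, all with overlapping groups (adjusted p = 0.463 to 0.953). *Fcgr3* was at 18.2 ± 4.57 FPKM in fl/fl and 12.8 FPKM in cKO testes.

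Among 14 genes of apoptotic cell clearance, a pathway that Sertoli cells use as well as macrophages, 13 were tested, all 13 with a difference above 0, a median of 0.27 and 0 called. At an unadjusted p below 0.05, 5 were higher and 0 lower. *Gas6*, the bridge between phosphatidylserine on dying cells and the receptors TYRO3, AXL and MERTK, was at 59.0 ± 5.43 FPKM in fl/fl and 87.4 FPKM in cKO testes with no overlap (difference 0.56 ± 0.12, adjusted p = 0.150). Of 15 macrophage cytokines and effectors, 9 were tested and 6 had a difference above 0, with 1 higher and 1 lower at an unadjusted p below 0.05. *Tgfb1*, a cytokine made by many cell types, was at 3.76 ± 0.685 and 5.70 FPKM with no overlap (difference 0.60 ± 0.14, adjusted p = 0.172). The lower one was *Il1b*, named after its values were seen, which encodes the inflammatory cytokine interleukin-1 beta and was at 1.35 ± 0.351 FPKM in fl/fl and 0.781 ± 0.172 FPKM in cKO testes, without overlap (difference -0.70 ± 0.23, adjusted p = 0.302).

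Markers of other blood cells were at low levels. Of 15 monocyte and neutrophil markers only 5 reached the wider fit, with summed levels of 1.33 to 3.31 FPKM in fl/fl and 2.09 to 3.19 FPKM in cKO libraries, and none of the 5 reached an unadjusted p below 0.05 (0 higher, 0 lower). *Ccr2*, the chemokine receptor of monocytes recruited from blood, was at 0.222 ± 0.0332 and 0.328 FPKM (difference 0.39 ± 0.23, adjusted p = 0.581), and *Plac8* differed by 0.78 ± 0.59 (adjusted p = 0.679), a value that became 0.12 when control replicate 3 was left out and 1.21 when control replicate 2 was. The neutrophil genes *S100a8*, *S100a9* and *Ly6g* were each below 0.25 FPKM in all libraries. Of 13 lymphocyte markers 6 were tested, with 2 above 0, a median of -0.17 and 0 called. At an unadjusted p below 0.05, 0 of them were higher and 1 lower, and 1 was lower without overlap of the groups. The B cell genes *Cd79a* and *Ms4a1* were below 0.5 FPKM in all libraries. None of 6 mast cell markers reached the wider fit, their sum staying at or below 0.313 FPKM, *Fcer1a* was at 0 in all 8 libraries, and *Tpsb2*, the most abundant, was at 0 to 0.204 FPKM.

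Markers of other somatic cells of the testis also had higher fitted levels in cKO testes. All 7 Leydig cell markers had a difference above 0 with a median of 0.55, and 4 of them an unadjusted p below 0.05, with summed levels of 35.9 to 57.6 FPKM in fl/fl and 51.6 to 72.2 FPKM in cKO libraries. *Nr5a1*, the regulator of steroidogenic genes, differed by 0.27 ± 0.09 (adjusted p = 0.348), and *Cyp11a1*, which makes pregnenolone from cholesterol, by 0.64 ± 0.17 (adjusted p = 0.212). All 8 endothelial markers were above 0 with a median of 0.45 and sums of 9.79 to 17.7 and 16.6 to 21.8 FPKM, among them *Cdh5*, VE-cadherin, at 0.72 ± 0.29 (adjusted p = 0.413), or 0.42 without control replicate 1. Of 7 peritubular myoid markers 6 were above 0 with a median of 0.27 and sums of 53.8 to 87.9 and 83.4 to 116 FPKM, and *Acta2*, smooth muscle actin, differed by 0.57 ± 0.17 (adjusted p = 0.287). At an unadjusted limma p below 0.05, 2 endothelial markers and 1 myoid marker were higher and 0 of either list lower. The groups did not overlap, with cKO testes higher, for 2 Leydig, 2 myoid and 0 endothelial markers. *Nr5a1*, *Cyp11a1* and *Acta2* were among these, and the share over the genes of the wider fit was 3.78%.

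Of 10 Sertoli cell markers 8 were above 0, with a median of 0.15 and sums of 1545 to 2603 and 2017 to 2364 FPKM. *Clu*, the clusterin gene, differed by 0.36 ± 0.19 (adjusted p = 0.541) and *Fshr*, the receptor of follicle-stimulating hormone, by 0.45 ± 0.22 (adjusted p = 0.520), or 0.21 without control replicate 1. *Clu* was the 1 Sertoli marker whose groups did not overlap, with cKO testes higher. Of 10 spermatocyte markers 1 was above 0, the median was -0.22, and the sums were 1630 to 2296 FPKM in fl/fl and 1314 to 2002 FPKM in cKO libraries. At an unadjusted limma p below 0.05, 0 Sertoli markers were higher or lower, and 2 spermatocyte markers were lower and 0 higher. *Ldhc*, the germ cell lactate dehydrogenase, was at 524 ± 128 and 313 FPKM (difference -0.73 ± 0.22, adjusted p = 0.287). The part of these shifts in the levels of the macrophage genes was not tested beyond the centring given next.

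**Figure D4:**
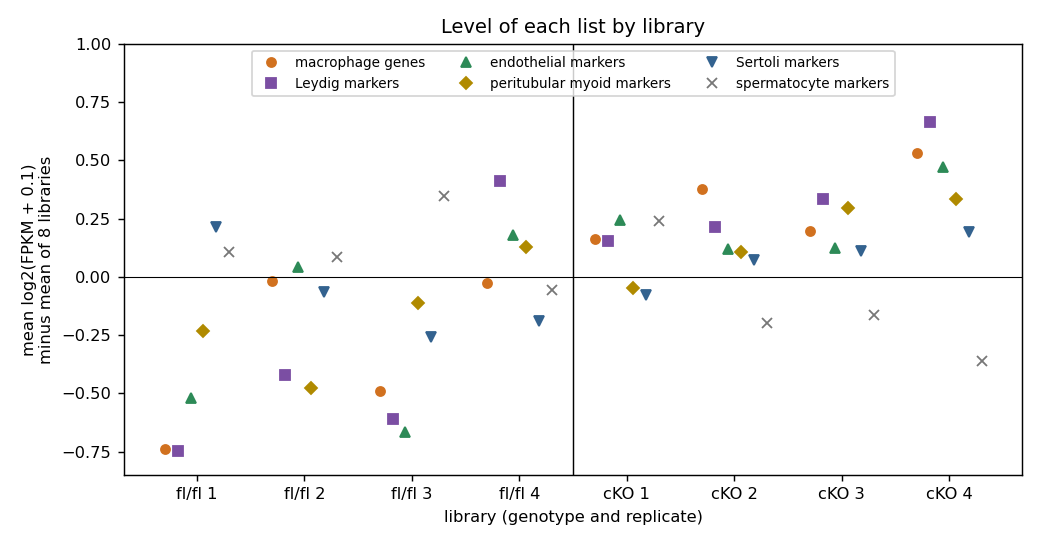
Mean log2(FPKM + 0.1) of the macrophage genes and of the markers of 5 other cell types, per library, minus the mean over the 8 libraries. The macrophage, Leydig and endothelial points are low in control replicates 1 and 3 and high in cKO replicate 4, whereas the spermatocyte points are lowest in cKO replicate 4.

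With each library centred on 25 somatic markers, which on the FPKM scale were 0.35 higher on average in cKO testes, the differences became lower, and all values here are relative to that shift. They were 0.56 for *C1qb*, 0.53 for *C1qc*, 0.49 for *C1qa*, 0.48 for *Cd163*, 0.41 for *Lyz2*, 0.37 for *Csf1r* and 0.13 for *Cd68*. Those of *Adgre1* and *Mrc1* changed sign, to -0.12 and -0.11, and that of *Aif1* became -0.57. On this scale 6 of the 8 were higher and their median difference was 0.39, whereas the median of all genes tested was -0.34. Limma gave an unadjusted p below 0.05 for *C1qb* and *C1qc*, which were higher, with adjusted p of 0.143 and 0.122. Of all genes tested, 0.338% were higher at that unadjusted p.

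**Figure D5:**
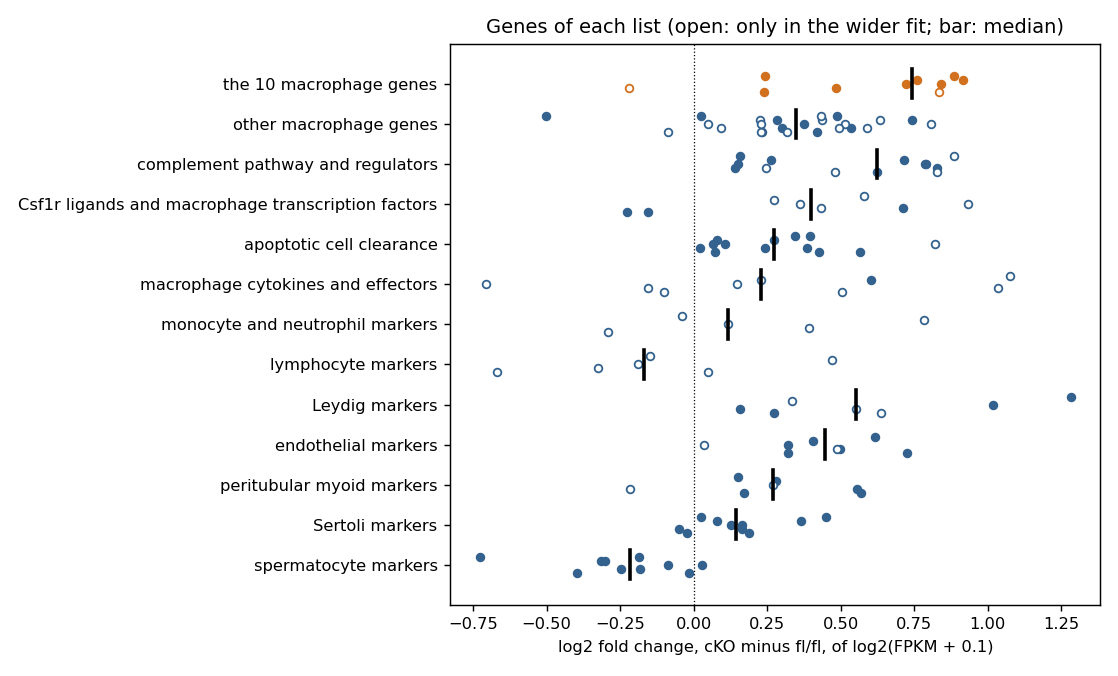
Difference in log2(FPKM + 0.1), cKO minus fl/fl testes, for each tested gene of each list (points, horizontal axis), with the median of the list as a bar. The medians run from -0.22 for spermatocyte markers to 0.74 for the 10 macrophage genes. Single genes run from -0.22 to 0.91 among the macrophage genes and from 0.16 to 1.28 among the Leydig markers.

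The 5 protein-coding genes whose level followed the mean of the 8 macrophage genes most closely over the 8 libraries were *Cd302* (Pearson r = 0.992), *Tgfbi* (0.985), *Dlg5* (0.979), *Ece1* (0.979) and *Calcoco1* (0.978). These are the highest of many correlations over the same libraries and are given as a description. *Cd302*, a C-type lectin receptor of myeloid cells, was at 6.21 ± 1.60 and 9.41 ± 0.787 FPKM without overlap (difference 0.62 ± 0.17, limma adjusted p = 0.255). *Tgfbi*, an extracellular matrix protein induced by TGF-beta, was at 4.65 ± 1.55 and 8.91 ± 1.89 FPKM without overlap (difference 0.96 ± 0.24, adjusted p = 0.179). The other three differed by 0.25 to 0.47.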

How the data were processed

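RNA from whole testes of 8 mice was sequenced and, per the labels, mapped to GRCm38 (mm10). The authors deposited FPKM per gene in 1 table of 54532 genes. The aligner and counter are not given in the sources used here. FPKM times gene length gave whole fragments (tolerance 0.02) for 100% of values, which set depth (13978342 to 19583091 fragments per library) and counting error.

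Values were analysed as log2(FPKM + 0.1) with limma 3.58.1 in R 4.3.3 (eBayes with a mean trend, Benjamini-Hochberg adjustment), over protein-coding genes averaging above 1 FPKM in each group, or above 0.1 FPKM over all libraries for *Cd163* and *Aif1*. Single values were also compared by exact permutation over 70 assignments. The scripts were tested on simulated data. No library was dropped.

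All 10 genes are named, with the most abundant gene and the gene of smallest p of each other list, some of which are not reported here, and the 5 genes most correlated with the members. The members, lists and tests were chosen with earlier results of these data known. Alternatives were the pseudocount (1, 0.01), the filter, all biotypes, voom on recovered fragments, array weights, a replicate block, centring on the autosomal median or on 25 somatic markers, rescaling to TPM, and leaving out each library. The same replicate number in both groups was not taken as pairing. Promoters are from RefSeq.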

Additional observations from a re-analysis of the deposited data

Results flagged for a closer look

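Within groups of 4 libraries, the gap of the highest or lowest library to its neighbour was compared with the whole range by Dixon's test for the 10 macrophage genes, the genes that the rule names from the other lists, the 5 genes most correlated with the members, each summed list, the mitochondrial share and the total of fragments. Genes named outside the rule were not examined in this way. Of 90 groups, 8 passed the 95% critical value, where 4.5 would pass by chance. *Csf1r* stood at 3.13 FPKM in cKO replicate 4, beside 2.49 to 2.54 FPKM in the other cKO libraries, which all lay above the highest fl/fl library of 2.41 FPKM. In the same library the complement list summed to 86.2 FPKM (others 53.9 to 59.3), *C1s1*, a member of that list, was at 31.5 FPKM (14.7 to 17.2), *Gas6* at 104 FPKM (81.2 to 82.5), *Clu* at 1188 FPKM (991 to 1024) and *Cdh5* at 7.57 FPKM (5.63 to 5.80). *C1s1* was also at 23.0 FPKM in control replicate 4, beside 7.73 to 9.04 FPKM in the other controls. In control replicate 1, 0.464% of fragments were on mitochondrial genes, beside 2.97% to 3.39% in the other controls.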

How the results depend on the processing

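In every setting run, 0 of the macrophage genes were called, and the lowest adjusted p of any of them was 0.0506 (*Csf1r*, array weights). An unadjusted limma p below 0.05 was reached by 6 of the 8 genes past the filter, beside 5.89% of all genes tested that were higher at that p. With 1 library left out it was reached by 5 or 6, beside 2.98% (without cKO replicate 4) to 9.73% (without control replicate 1). After centring on somatic markers it was reached by 2, beside 0.338%. There *Adgre1* became -0.12, *Mrc1* -0.11, *Lgmn* -0.070, *Nr5a1* -0.081 and *Calcoco1* -0.10. The count of all protein-coding genes called, 2, became 4 with all biotypes, 454 with array weights, 1 with autosomal centring, 1 with TPM, 7 with somatic centring and 0 with no filter, and ranged from 0 to 3 when 1 library was left out. Genes called in the other lists numbered 0, and 6 with array weights, under which control replicate 1 counted 0.161.

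Deviations of libraries with the same replicate number correlated at 0.0757 to 0.406 and exceeded 0.1 for 3 of 4 numbers. Of 8 libraries, 5 correlated best with their own number. The numbers were not taken as pairing because the labels do not say that they tie libraries together, and these correlations do not settle it. With the replicate block 7 of the 8 macrophage genes had an unadjusted p below 0.05 (7.82% of all genes were higher at that p), 0 were called, and 0 protein-coding genes were called in all. Depth limits *Aif1* most, with 11 to 26 fragments per library.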
